A study of Arabidopsis thaliana with 8 samples.

Results

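The Aux/IAA and ARF genes of Arabidopsis thaliana encode the transcription factors of the nuclear auxin response. Nucleosome positions were collected here for 43 of these loci, 29 Aux/IAA genes and 14 ARF genes, out of 27444 protein-coding genes on the 5 nuclear chromosomes. Members were chosen by name and locus, not by a measured value, though earlier results of these data were known. For each, the nucleosomes with centers from 1 kb upstream of the annotated gene start to 300 bp past its end were taken. All 43 had a listed nucleosome in each of the 4 lists, and no windows of members overlapped. The closest pairs were IAA3 and IAA17 (6389 bp apart), IAA1 and IAA14 (10733 bp) and IAA2 and IAA7 (12511 bp).

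ARF proteins bind auxin response elements (AuxREs) in the promoters of auxin-regulated genes. Aux/IAA proteins bind ARFs and bring in the corepressor TOPLESS, which keeps the target genes off. Auxin is perceived by TIR1 and its AFB relatives, F-box proteins that hold the hormone against a short degron in the Aux/IAA protein and mark it for destruction, so that the ARF is set free. Many Aux/IAA genes are themselves switched on by auxin within minutes, which closes a feedback loop. In root tissue the pathway drives lateral root founding and, on auxin-rich medium, callus formation.

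The samples were roots of 3-week-old Landsberg erecta seedlings carrying 35S:LFY-GR, the floral transcription factor LEAFY (LFY) fused to the steroid-binding part of the glucocorticoid receptor and driven by the broadly active 35S promoter. The explants had been held on callus-inducing medium (CIM) for 5 days, which supplies auxin and cytokinin, so every group, mock included, was exposed to auxin. For 1 h they received a mock solution or dexamethasone (dex), which lets the fusion enter the nucleus, and chromatin was cut with little (low digest) or much (high digest) micrococcal nuclease, an enzyme that spares DNA wrapped in nucleosomes. Of the 8 libraries, 2 for each of the 4 conditions, the data used were 1 pooled list of 140-bp nucleosome intervals per condition. The tissue is labelled callus, which nucleosome positions cannot check, and in a mixture of cells a nucleosome held by fewer cells and a changed cell mixture cannot be told apart. With 1 list per condition there is no spread between replicates, no difference below carries a test, and each is a description of these lists. The list deposited as high digest dex carries, in its own name column, the name of a dex library at low digest, and its values are given as those of "the list labelled high dex". Its length is close to the number of nucleosomes the paper gives for high digest dex. The low digest dex list is longer than the paper's number for that condition. The lists held 242336 to 482098 nuclear nucleosomes and covered 27.9% to 54.4% of the nuclear genome, with the fewest in low digest dex and the most in high digest mock. Read numbers are not in the lists, so the depth is unknown and a longer list cannot be told from deeper sequencing. Where 4 values are given in a row, their order is low digest mock, low digest dex, high digest mock and the list labelled high dex.

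Some promoter stretches of members are shown first, because the results turn on where nucleosomes lay over them. They were read from the RefSeq TAIR10.1 reference (Columbia), 5′ to 3′ on the strand of the gene, with positions counted from the annotated gene start. Capitals mark AuxREs, searched as TGTCTC, the element found first in auxin-induced genes, and TGTCGG, a variant bound with high affinity in vitro, on both strands, so that a reverse match reads GAGACA or CCGACA. The first pair are the DNA under nucleosomes that stood in all 4 lists, with each center within 30 bp of that in low digest mock. They lie at chr4:14325552-14325691 (minus strand, -330 to -191 bp) and chr5:9032522-9032661 (plus strand, -682 to -543 bp). Each holds 1 AuxRE of either form.
IAA27: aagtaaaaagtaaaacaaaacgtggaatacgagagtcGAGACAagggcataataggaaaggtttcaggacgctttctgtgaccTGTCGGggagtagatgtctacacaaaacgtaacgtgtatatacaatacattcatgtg
IAA28: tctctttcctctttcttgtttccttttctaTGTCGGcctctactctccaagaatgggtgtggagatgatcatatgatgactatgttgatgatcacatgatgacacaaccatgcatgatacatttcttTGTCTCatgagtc
The next pair hold 3 TGTCTC elements each, at chr3:5263801-5263890 (plus strand, -200 to -111 bp) and chr1:1129950-1130089 (minus strand, -400 to -261 bp), and were covered in some lists only.
IAA19: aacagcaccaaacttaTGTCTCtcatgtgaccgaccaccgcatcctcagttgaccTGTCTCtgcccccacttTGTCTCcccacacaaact
IAA3: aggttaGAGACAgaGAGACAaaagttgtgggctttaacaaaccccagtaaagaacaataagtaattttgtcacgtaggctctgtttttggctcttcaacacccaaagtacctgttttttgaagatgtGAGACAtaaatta
The 2 elements of the following stretch, at chr5:17549639-17549688 (plus strand, -540 to -491 bp), lay under no nucleosome in any list.
IAA4: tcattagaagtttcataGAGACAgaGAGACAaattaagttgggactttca
The 300 bp upstream of ARF7, at chr5:7022180-7022479 (minus strand), were free of listed nucleosomes in all 4 lists and 26.7% G+C, whereas those of IAA15, at chr1:30222770-30223069 (minus strand, 38.0% G+C), carried nucleosomes in every list and no AuxRE.
ARF7: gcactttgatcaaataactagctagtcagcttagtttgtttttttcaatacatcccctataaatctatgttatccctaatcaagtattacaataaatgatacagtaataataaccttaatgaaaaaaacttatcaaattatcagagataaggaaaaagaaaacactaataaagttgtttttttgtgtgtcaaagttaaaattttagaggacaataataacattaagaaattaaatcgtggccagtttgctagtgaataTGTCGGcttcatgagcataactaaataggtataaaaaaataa
IAA15: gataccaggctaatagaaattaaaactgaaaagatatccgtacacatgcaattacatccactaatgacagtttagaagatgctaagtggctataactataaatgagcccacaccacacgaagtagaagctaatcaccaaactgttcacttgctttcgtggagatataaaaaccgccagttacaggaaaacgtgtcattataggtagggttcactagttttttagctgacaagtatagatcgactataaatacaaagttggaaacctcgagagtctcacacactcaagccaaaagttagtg
The last stretch, at chr4:8350512-8350651 (minus strand, -388 to -249 bp), is the DNA under a nucleosome of IAA14 present in all 4 lists, and its capitals mark the LFY core motif CCANTGG, which reads the same on both strands.
IAA14: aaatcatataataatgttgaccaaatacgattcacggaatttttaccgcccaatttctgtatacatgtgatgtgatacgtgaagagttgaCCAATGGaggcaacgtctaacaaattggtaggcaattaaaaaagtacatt

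ARF promoters were less covered by nucleosomes than Aux/IAA promoters in all 4 lists. Coverage was taken as the percentage of bases of the 1 kb upstream of the gene start that lay in a listed nucleosome. Pooled over the 14 ARF promoters it was 15.1%, 12.8%, 36.3% and 16.6%. Pooled over the 29 Aux/IAA promoters it was 28.1%, 33.6%, 51.4% and 33.6%. All protein-coding genes stood at 29.2%, 25.6%, 48.9% and 34.2%. The Aux/IAA promoters thus lay above all genes in low digest dex and high digest mock and below them in the other 2 lists, while the ARF promoters lay below all genes in every list, by 12.6 to 17.6 percentage points. By gene, 10 of 14 ARF promoters fell below the median of all genes in low digest mock and 12 of 14 in each of the other lists. Of the 29 Aux/IAA promoters, 15, 7, 14 and 13 fell below it.

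ARF promoters also differed in base composition and surroundings, whose part in the low coverage was not tested. Median promoter G+C was 28.2% for ARF, 31.2% for Aux/IAA and 32.6% for all genes. Among the 5649 protein-coding genes with the promoter G+C of the middle range of ARFs (27.2% to 30.3%), pooled promoter coverage was 15.3%, 16.2%, 38.5% and 18.7%, and the 6 ARFs in that range had 13.1%, 11.7%, 34.2% and 16.5%. Within this range, chosen after seeing the data and holding 6 of 14 ARFs, the ARF value was 2.17 to 4.42 points below that of the genes. Among the 6258 genes in the middle range of Aux/IAA promoter G+C (29.7% to 32.7%) coverage was 22.8%, 22.7%, 47.2% and 27.4%, whereas the 15 Aux/IAA genes in it had 30.7%, 34.8%, 55.7% and 32.2%, above such genes in each list. Other annotated genes occupied 4.83% of ARF promoter bases, 12.8% of Aux/IAA promoter bases and 35.7% of promoter bases of all genes. Counting only bases outside other genes, ARF promoters stood 5.38 to 8.35 points below all genes, and Aux/IAA promoters 5.70 to 11.3 points above them, in all 4 lists.

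**Figure D1:**
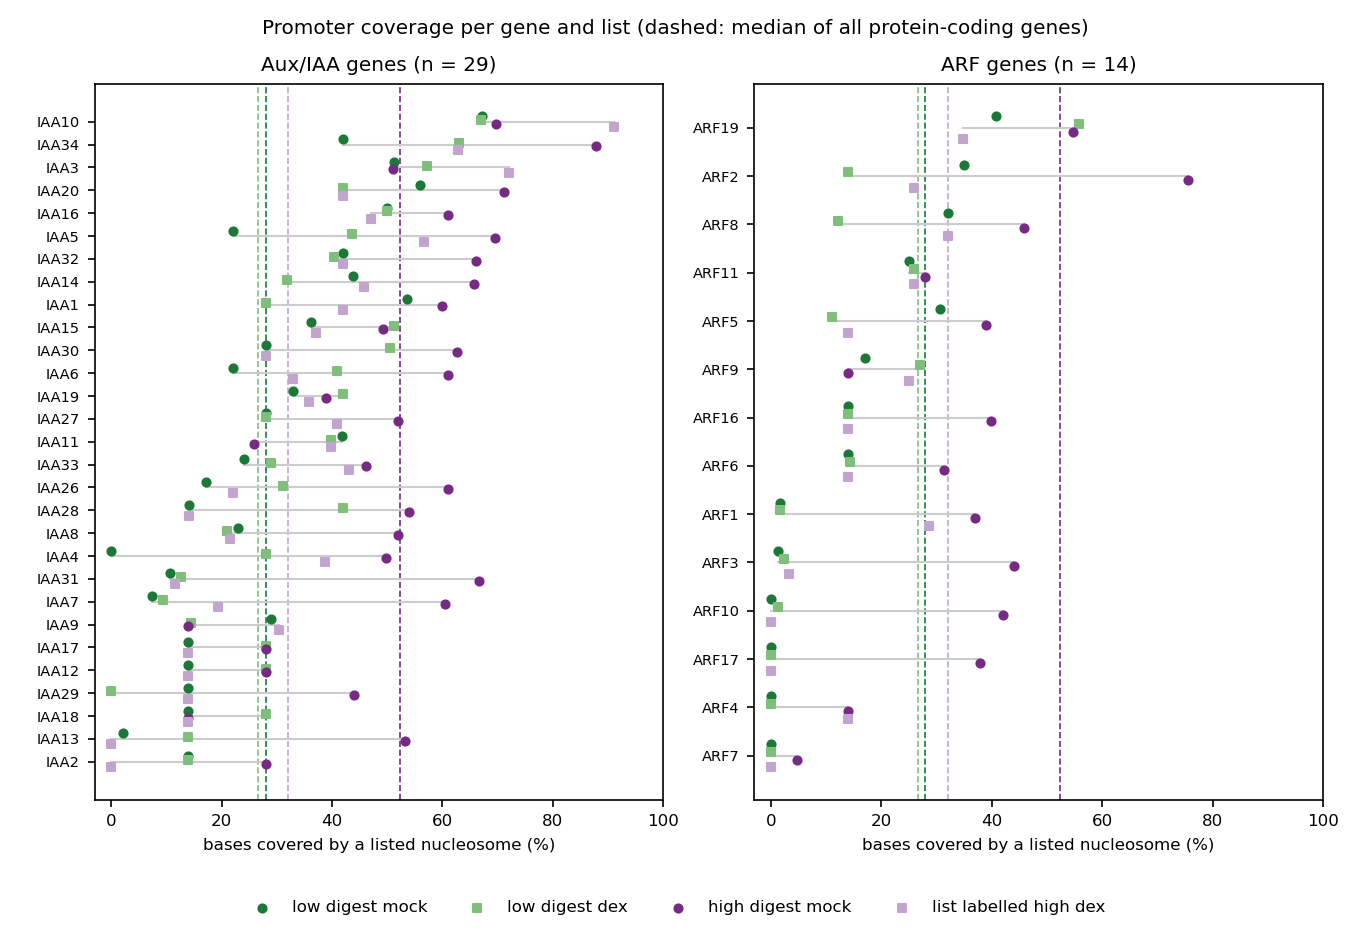
Percentage of the 1 kb upstream of each gene start covered by listed nucleosomes, with 1 row per gene, 1 marker per list (circles mock, squares dex) and a grey line from the lowest to the highest list. Dashed lines are the medians of all protein-coding genes per list, and most ARF markers lie to the left of the line of their own color.

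Among ARFs, the extremes were held by close relatives. ARF7 (AT5G20730) and ARF19 (AT1G19220) encode activating ARFs that together promote lateral root formation. ARF7 had the least covered promoter of all 43 members, with 0%, 0%, 4.8% and 0%. ARF19 had the most covered ARF promoter, with 40.8%, 55.8%, 54.8% and 34.8%, and the values of this pair did not overlap. ARF2 (AT5G62000), a repressing ARF that limits seed and organ size, followed with 34.9%, 14%, 75.5% and 26%, and ARF8, which acts in flower maturation, with 32.0%, 12.1%, 45.9% and 32.1%. The low end after ARF7 was ARF4, which acts with ARF3 in leaf polarity, at 0%, 0%, 14% and 14%, and ARF17 at 0%, 0%, 37.8% and 0%.

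ARF17 belongs with ARF10 and ARF16 to the branch whose messages are cut under the guidance of the microRNA miR160. The promoters of these 3 genes together were covered at 4.67%, 5.10%, 39.9% and 4.67%. Each of the 3 had its highest coverage in high digest mock, the longest list. The same held for ARF1, ARF2, ARF3, ARF5, ARF6, ARF7, ARF8 and ARF11. Of all genes, 61.9% were higher there than in low digest mock by at least 140 bases. ARF10 had 0%, 1.3%, 42% and 0%, and ARF16 14%, 14%, 39.8% and 14%. ARF3, also called ETTIN, showed a like pattern outside this branch, with 1.3%, 2.3%, 44.0% and 3.3%. The 5 activating ARFs (ARF5, ARF6, ARF7, ARF8 and ARF19) had pooled values of 23.5%, 18.6%, 35.2% and 19.0%, and the 6 other ARFs 13.3%, 11.8%, 35.4% and 20.5%.

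The most covered Aux/IAA promoters were those of IAA10 (AT1G04100, 67.2%, 67.0%, 69.8% and 91%), IAA34 (42%, 63.0%, 87.8% and 62.8%) and IAA3 (51.2%, 57.2%, 51.0% and 72.0%). The first 2 are largely the inside of other genes. AT1G04090 takes up 985 of the 1000 promoter bases of IAA10, and AT1G15060 all 1000 of IAA34. No other gene is annotated in the promoter of IAA3, known as SHY2, a repressor through which cytokinin limits the root meristem. Without the list labelled high dex, IAA20 took the place of IAA3 among the 3 highest.

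IAA2 (AT3G23030) had the lowest promoter coverage of the Aux/IAA family, with 14%, 14%, 28% and 0%. IAA13, a close relative of the embryonic root repressor IAA12, had 2.2%, 14%, 53.2% and 0%, and IAA18, which acts in embryo and lateral root development, 14%, 28%, 14% and 14%. IAA13 was near 0 in 2 lists and above the median of all genes in high digest mock, whereas IAA18 kept to 1 or 2 nucleosomes throughout. Without the list labelled high dex, IAA9 replaced IAA13 in this lowest group, and IAA2 no longer lay below IAA18.

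IAA20, IAA30, IAA31, IAA32, IAA33 and IAA34 are known to lack the canonical degron that TIR1 holds. Their 6 promoters pooled to 33.8%, 39.6%, 66.7% and 38.2%, and those of the other 23 Aux/IAA genes to 26.6%, 32.1%, 47.4% and 32.3%. The bodies of the 6 were also more covered, at 48.9%, 40.8%, 71.9% and 55.9% beside 36.8%, 28.7%, 62.4% and 48.2%. Other genes occupied 782 promoter bases of IAA32 and all of those of IAA34. Whether this carries the difference was not tested.

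In gene bodies the order of the families was the reverse of that in promoters. From gene start to gene end, ARF genes were covered at 58.9%, 45.3%, 73.8% and 65.8% and Aux/IAA genes at 38.6%, 30.6%, 63.9% and 49.4%, with all protein-coding genes between them in each list at 49.5%, 37.5%, 68.1% and 57.6%. Of the 14 ARF bodies, 12, 11, 12 and 12 lay above the median of all genes. Of the 29 Aux/IAA bodies, 8, 11, 12 and 7 did. The step from promoter to body was therefore steep in ARF genes, 43.8, 32.4, 37.5 and 49.2 points, against 20.3, 11.9, 19.2 and 23.4 points in all genes and 10.6, -3.03, 12.5 and 15.8 points in Aux/IAA genes.

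Gene architecture differed with the families. Coding sequence made up 53.1% of ARF bodies, 37.1% of Aux/IAA bodies and 51.6% of all bodies, and in every list and set coding sequence was more covered than introns. Introns made up 25.4% of ARF bodies, 24.7% of Aux/IAA bodies and 28.0% of all bodies, so the low coding share of Aux/IAA genes was not a high intron share. The remaining bases were exon outside coding sequence, whose coverage was not computed apart. In coding sequence alone, Aux/IAA genes had 62.2%, 44.0%, 83.4% and 74.4% and ARF genes 78%, 58.2%, 83.4% and 81.5%, beside 67.9%, 47.9%, 78.3% and 74.8% in all genes. The low Aux/IAA body value thus turned above that of all genes in high digest mock and came within 0.465 points of it in the list labelled high dex. Introns kept the families apart, at 23.4%, 19.8%, 52.3% and 30.03% in Aux/IAA genes and 45.0%, 36.5%, 61.5% and 49.96% in ARF genes, with all genes at 29.5%, 26.6%, 58.0% and 39.7%. ARF genes are long, with a median of 4633 bp against 1740 bp for Aux/IAA genes. The 7014 protein-coding genes of at least 3 kb had body coverage of 50.3% in low digest mock and 69.0% in high digest mock, close to the values of all genes.

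**Figure D2:**
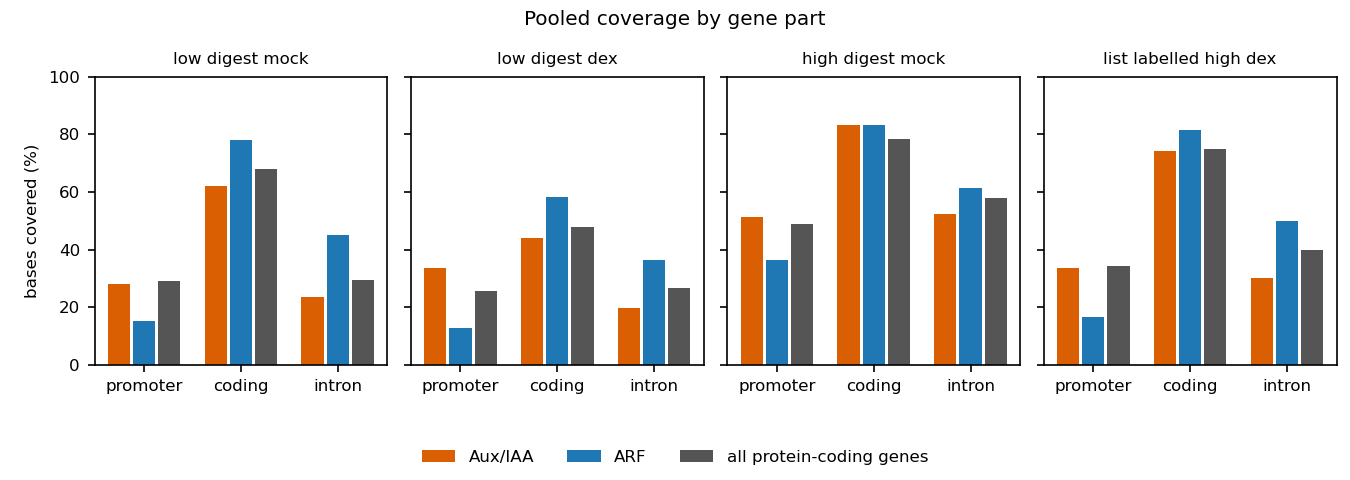
Percentage of bases covered by listed nucleosomes, pooled over the 1 kb promoters, the coding sequence and the introns of 29 Aux/IAA, 14 ARF and 27444 protein-coding genes, with 1 panel per list. ARF bars are the lowest of the 3 sets in promoters and the highest in introns in each panel.

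The best covered bodies were those of IAA32 (64.6%, 46.7%, 82.1% and 70.0%) and IAA34 (58.4%, 56.2%, 77.5% and 61.3%) among Aux/IAA genes. ARF5 (AT1G19850), known as MONOPTEROS and needed for the embryonic root and for flower primordia, led the ARF genes with 66.6%, 68.2%, 75% and 65.2%. ARF2 came next with 62.5%, 46.7%, 73.5% and 75.3%. ARF5 varied little between lists, and its low digest dex value was 22.9 points above the pooled ARF value of that list. The least covered bodies were IAA18 (17.2%, 5.74%, 56.4% and 17.2%) and IAA26 (21.5%, 14.2%, 58.1% and 37.7%), and in the ARF family ARF11 (44.4%, 29.6%, 65.4% and 51.4%) and ARF16 (56.2%, 49.7%, 60.2% and 54.4%). Each IAA18 value lay below the pooled Aux/IAA value of its list. Without the list labelled high dex, ARF19 stood in for ARF2 among the highest and ARF3 for ARF16 among the lowest.

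Just upstream of the gene start, ARF genes were covered less than Aux/IAA genes and all genes. The share of genes with a nucleosome over a position, averaged over the last 200 bp before the start, was 16.4%, 18.2%, 22.9% and 9.29% in ARF genes, 28.4%, 40.3%, 48.3% and 40.7% in Aux/IAA genes and 26.4%, 24.8%, 39.9% and 27.7% in all genes. In ARF genes this was a drop against the stretch from -1000 to -500 bp (13.1%, 12.1%, 42.1% and 18.9%) in high digest mock and the list labelled high dex only, since the low digest lists had low coverage along the whole promoter. Over the first 200 bp of the gene ARF coverage was 37.5%, 28.2%, 55.7% and 47.9%. Further in, from 200 to 500 bp, it was 30.5%, 16.7%, 69.0% and 64.5%, so that it was lower than over the first 200 bp in both low digest lists and higher in the others.

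**Figure D3:**
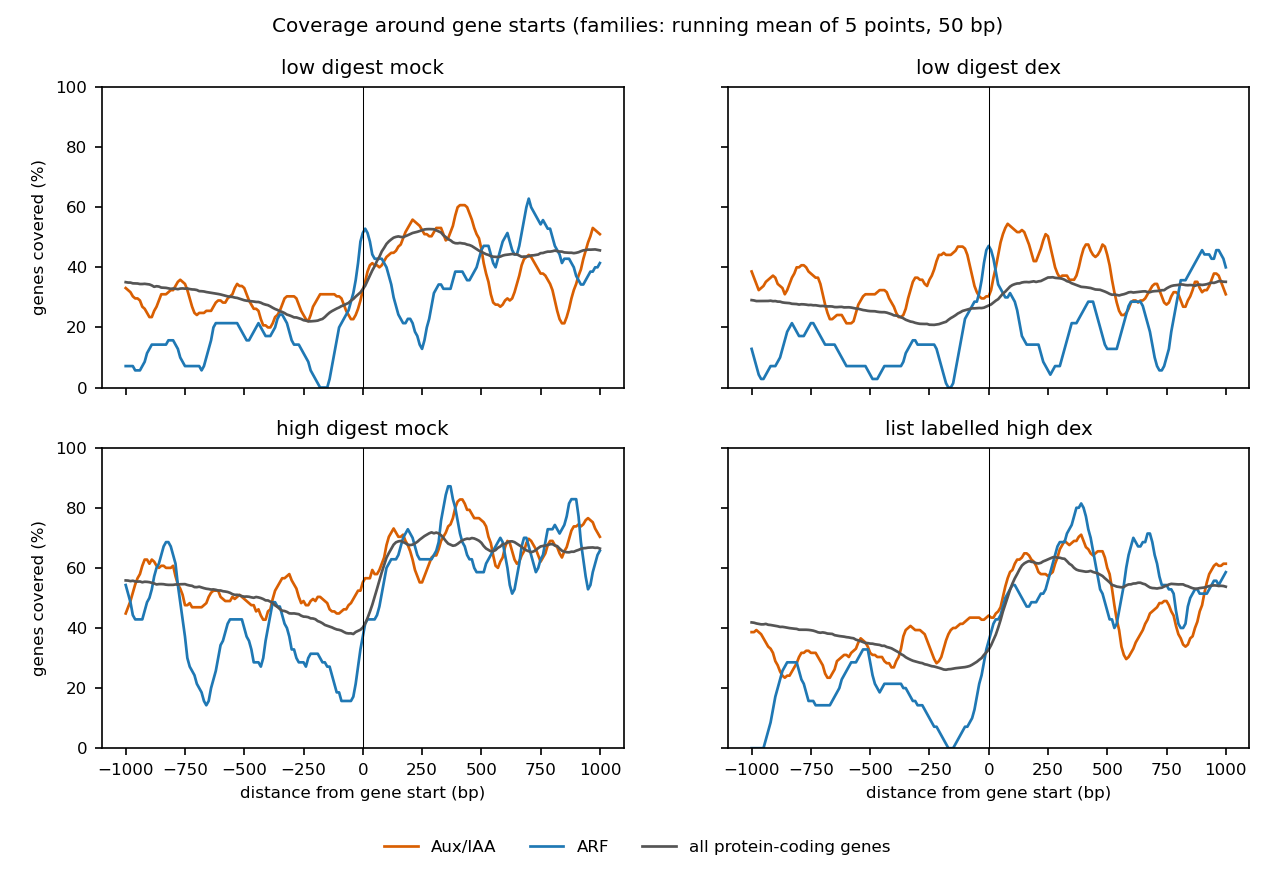
Percentage of genes with a listed nucleosome over each position from 1000 bp upstream to 1000 bp downstream of the gene start, by list, for Aux/IAA (orange), ARF (blue) and all protein-coding genes (grey). Family curves are running means of 5 points, and over the last 200 bp upstream of the start the ARF mean (9.29% to 22.9%) is below those of the other sets in all 4 panels.

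Over the last 300 bp before the start, mean coverage of ARF genes was 15.3%, 17.3%, 25.3% and 9.86%, that of Aux/IAA genes 27.6%, 39.0%, 49.2% and 38.8%, and that of all genes 25.3%, 23.7%, 41.2% and 27.7%. No nucleosome touched this stretch in 10, 5, 4 and 8 Aux/IAA genes and in 5, 5, 3 and 8 ARF genes, while 39.8%, 43.8%, 20.4% and 36.6% of all genes had it free. The Aux/IAA counts, out of 29, lay below the share of all genes in each list. The start base itself was covered in 9, 8, 16 and 12 Aux/IAA genes and in 8, 8, 6 and 5 ARF genes, beside 32.7%, 27.3%, 40.1% and 32.8% of all genes. As a share of the 14 ARF genes this was 57.1%, 57.1%, 42.9% and 35.7%. ARF starts were thus covered more often than those of all genes in the low digest lists, while in the other 2 the share was within the weight of 1 gene of the background.

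IAA2, IAA11 and ARF7 had the 300 bp before the start free in all 4 lists, 3 of 43 members, as had 13.7% of all genes. IAA2 is strongly induced by auxin, and IAA11 is a relative of IAA12 and IAA13. The start was covered in all 4 lists in IAA3, IAA7, IAA14, IAA15, ARF1, ARF3 and ARF19, 7 of 43 members beside 9.75% of all genes. IAA7 (AXR2) and IAA14 (SOLITARY-ROOT) are named for mutants with stabilized proteins, agravitropic in the one case and without lateral roots in the other. In IAA14 a nucleosome centered 31 to 41 bp into the gene stood in each list. In ARF1 the center was at 52 to 62 bp and in ARF3 at 36 to 56 bp, so that the nucleosome lay mostly inside the gene. In IAA7 the center was at -25 to 15 bp, and in IAA15, on the upstream side of the start, at -43 to -3 bp. Leaving out the list labelled high dex, 10 members, with IAA8, IAA13 and ARF5 in addition, had the start covered in the remaining 3 lists (11.9% of all genes), and the 3 with a free upstream stretch were unchanged (14.4% of all genes).

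**Figure D4:**
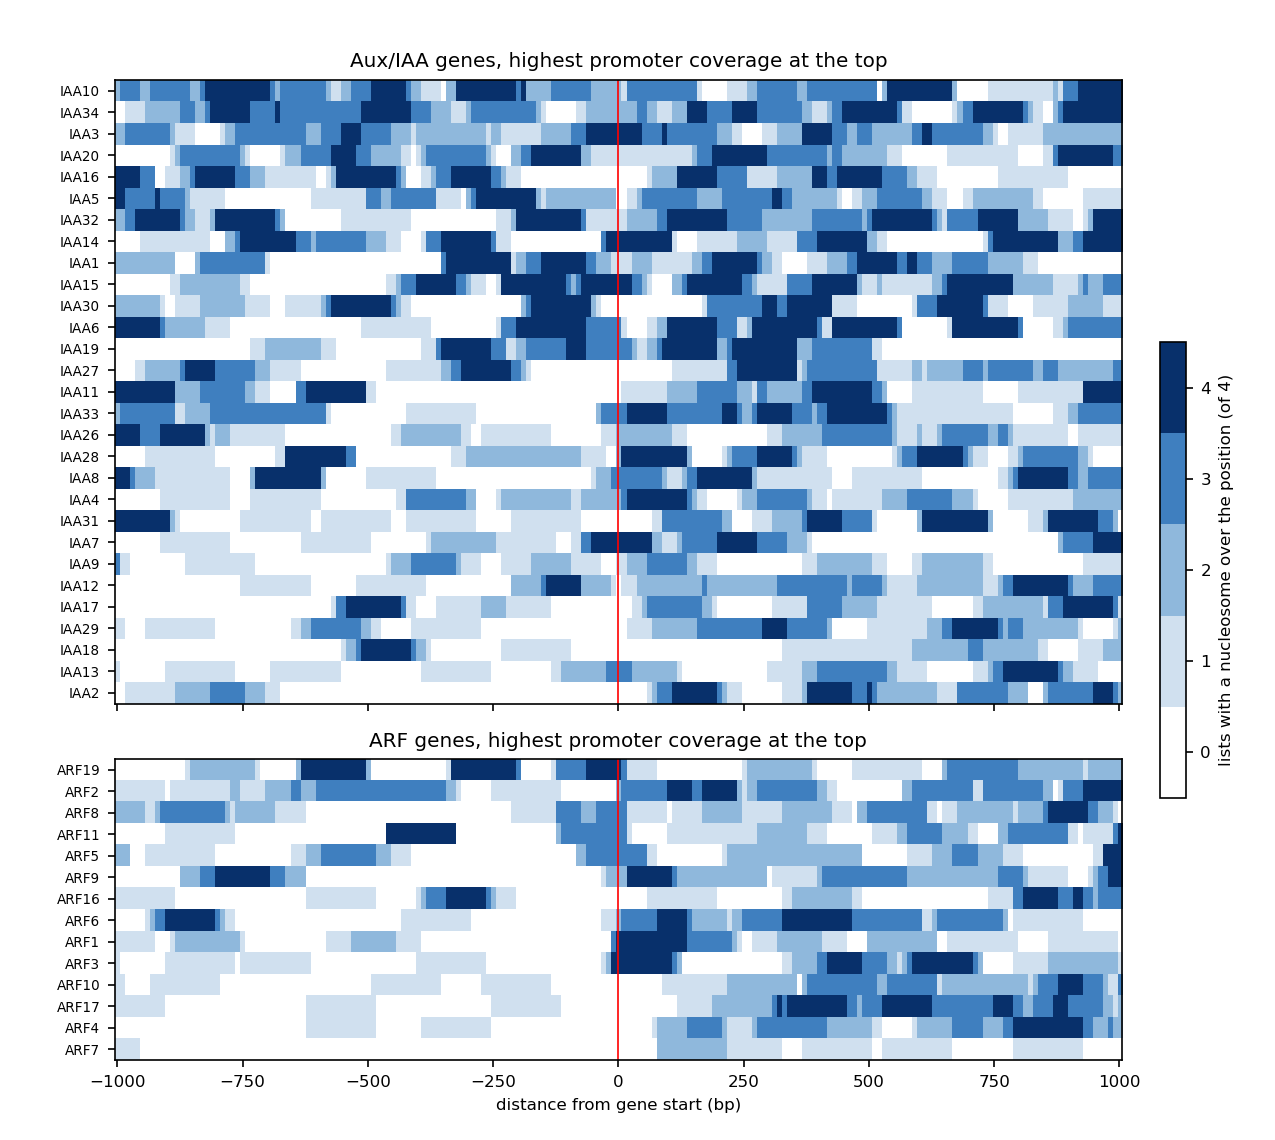
Number of the 4 lists with a nucleosome over each 10-bp step from 1000 bp upstream to 1000 bp downstream of the gene start (red line), 1 row per gene, ordered by mean promoter coverage. Dark blue blocks are positions covered in all 4 lists, which are frequent to the left of the line in Aux/IAA rows and sparse there in ARF rows.

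Some nucleosomes kept their place across all lists. With centers within 30 bp of the low digest mock center in each other list, 22 of 61 promoter nucleosomes of Aux/IAA genes were shared, in 16 of 29 members, and 4 of 15 of ARF genes, in ARF6, ARF11 and ARF19. Over all protein-coding genes 26.5% of promoter nucleosomes were shared, and 42.7% of genes had one. Per kilobase of promoter this was 0.759 in Aux/IAA genes, 0.286 in ARF genes and 0.564 in all genes. In gene bodies 42 of 152 Aux/IAA nucleosomes (27.6%) and 52 of 276 ARF nucleosomes (18.8%) were shared, beside 24.0% in all genes. Per kilobase of body these were 0.778, 0.830 and 0.875. IAA15 had 3 such nucleosomes in a row before the gene, centered in low digest mock at -363, -163 and -13 bp, the last of them over the start. The nucleosome of ARF11 at -391 bp had the same center in all 4 lists, and ARF19 carried a pair at -579 and -279 bp. ARF1 had the most in its body, 7, and IAA14 led the Aux/IAA bodies with 4.

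By height, the median promoter nucleosome of ARF genes ranked below that of Aux/IAA genes in each list. The occupancy signal of each nucleosome was ranked within its own list only, against all its nuclear nucleosomes. The median over the promoter nucleosomes of all genes was not computed, and the ARF nucleosomes were few. In high digest mock, the median ARF promoter nucleosome (37 in all) stood at the 14.8th percentile and the median Aux/IAA one (113) at the 33.2nd. In low digest mock the medians were the 64.1st (15 nucleosomes) and the 68.9th (61) percentile, in low digest dex the 26.9th (13) and the 59.0th (71), and in the list labelled high dex the 22.5th (16) and the 31.5th (71). When high digest mock was reduced to its 242336 highest nucleosomes, the size of the shortest list, ARF promoter coverage in it went from 36.3% to 1.09% and Aux/IAA promoter coverage from 51.4% to 16.6%, with all genes at 21.4%.

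AuxREs were frequent in Aux/IAA promoters. TGTCTC or TGTCGG occurred in 21 of 29 Aux/IAA promoters and 9 of 14 ARF promoters, with 40 and 11 sites, whereas 48.3% of all promoters of 1 kb held at least 1. TGTCTC alone was found in 17 Aux/IAA and 6 ARF promoters (39.6% of all promoters) and TGTCGG in 8 and 4 (14.6%). No sites of members overlapped each other. A match is a run of letters, and ARF binding was not analysed here.

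Of the 40 Aux/IAA sites, nucleosomes covered 21, 18, 24 and 24. As shares with Wilson 95% intervals these were 52.5% (37.5% to 67.1%), 45.0% (30.7% to 60.2%), 60.0% (44.6% to 73.7%) and again 60.0% (the same interval). These intervals cover counting error only, and sites under 1 nucleosome are not independent. The 18896 sites of all promoters were covered at 43.9%, 37.3%, 62.2% and 49.0%, within each interval. ARF sites were covered in 4, 3, 5 and 6 of 11. In all 4 lists 9 Aux/IAA sites and 3 ARF sites were covered, and 6 and 5 in none, as were 20.9% and 25.6% of the sites of all promoters.

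The sites covered in every list lay in IAA1, IAA5, IAA6, IAA8, IAA27, IAA28, IAA32, ARF9, ARF16 and ARF19. In IAA27 (AT4G29080) the TGTCTC at -291 bp and the TGTCGG at -245 bp shared the nucleosome whose DNA is shown above, centered between -281 and -241 bp. In IAA28 (AT5G25890), which represses lateral root initiation, TGTCGG at -650 bp and TGTCTC at -553 bp lay on opposite sides of the center of a nucleosome found between -613 and -593 bp. The other Aux/IAA sites of this kind stood closer to the start, at -133 bp in IAA1, -177 bp in IAA6, -224 bp in IAA5 and -129 bp in IAA32, except that of IAA8 at -633 bp.

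The 3 TGTCTC elements of IAA19 (AT3G15540), a gene that acts in tropic bending of the hypocotyl, lay at -182, -143 and -126 bp. Nucleosomes covered all 3 in every list but high digest mock, which had none of them covered. In IAA3 the elements at -392, -384 and -271 bp lay under nucleosomes in low digest mock and the list labelled high dex, and free in the other 2 lists. In IAA31 the 3 elements at -726, -705 and -565 bp were covered in high digest mock alone. In these 3 genes the elements were covered or free together in every list. IAA8 also has 3 TGTCTC elements, and there they differed, with that at -897 bp covered in 1 list, that at -633 bp in 4 and that at -174 bp in none. The sites of IAA1 (3) and IAA5 (4) differed among themselves too.

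Free in all lists were both elements of IAA4 (-521 and -513 bp), both TGTCGG of IAA16 (-409 and -161 bp), the TGTCTC of IAA8 at -174 bp and that of IAA34 at -112 bp. In the ARF family these were ARF1 (-267 bp), ARF3 (-202 bp), ARF7 (-40 bp), ARF17 (-872 bp) and ARF19 (-451 bp). The ARF19 site lay between the 2 nucleosomes at -579 and -279 bp that all lists shared, while its TGTCGG at -64 bp was covered in all 4. IAA16 likewise held a nucleosome shared by all lists, centered at -511 to -491 bp, and both of its sites lay downstream of it.

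**Figure D5:**
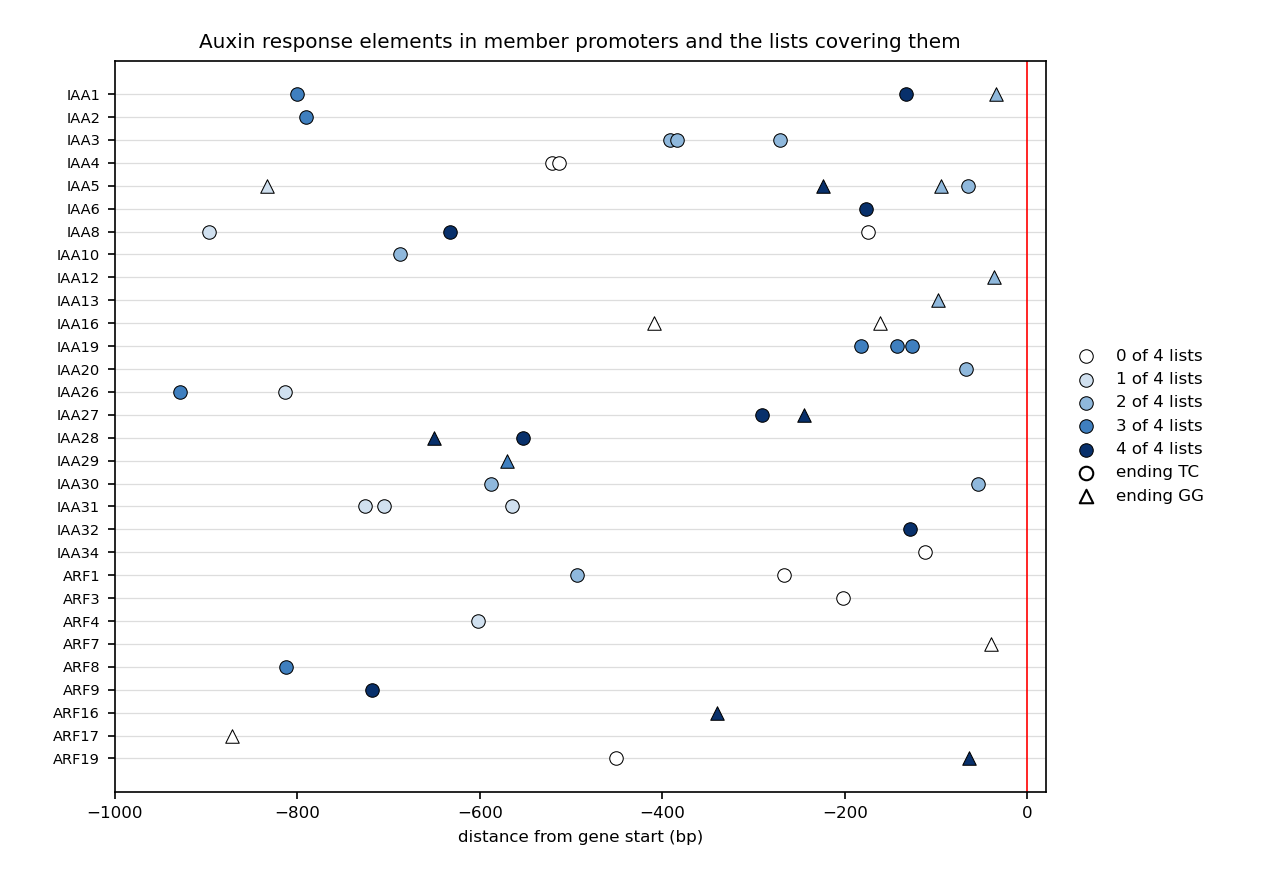
Position of each of the 51 AuxREs in 30 member promoters relative to the gene start (red line), with circles for TGTCTC and triangles for TGTCGG. Fill runs from white (no list) to dark blue (all 4 lists with a nucleosome over the site), and the trios of IAA3, IAA19 and IAA31 each have 1 shade.

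The LFY core CCANTGG occurred in 2 member promoters, IAA14 and ARF3, while 12.3% of all promoters held it. The site of IAA14 at -295 bp lay under a nucleosome in all 4 lists, centered at -319, -289, -329 and -319 bp. In ARF3 the site at -787 bp was covered in high digest mock alone. The 3719 sites of all promoters were covered at 50.5%, 41.9%, 63.6% and 54.3%. The core is short, and LFY binding was not analysed here.

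The comparison of dex with mock asks where nucleosomes stand once LFY is nuclear. A promoter was counted as changed where its coverage differed by at least 140 of 1000 bases, the width of 1 listed nucleosome. At low digest, 11 Aux/IAA promoters and 1 ARF promoter (ARF19) were higher in dex, with 13.0% of all genes higher, and 4 Aux/IAA and 3 ARF promoters were lower, with 25.0% of all genes lower. The Aux/IAA promoters thus leaned to more coverage in a list that was shorter than its mock partner, with a median difference of 5.0 points beside 0 for all genes. The low digest dex list was called from reads pooled first, unlike its mock partner, so calling and treatment cannot be told apart here. The largest positive difference was in IAA4, 0% in mock and 28% in dex. At high digest 4 Aux/IAA promoters were higher (IAA3, IAA9, IAA10 and IAA11) and no ARF promoter, with 2.21% of all genes higher. There 18 Aux/IAA and 8 ARF promoters were lower, 26 of 43 members, with 51.3% of all genes lower.

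These counts changed with the length of the lists. With each list reduced to the 242336 highest nucleosomes, 7 members were higher and 5 lower in dex at high digest (13.3% and 22.9% of all genes). At low digest 15 were then higher and 4 lower (23.7% and 12.7% of all genes), so that all genes leaned the same way as the members.

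Promoters of IAA1, IAA20, IAA29, ARF2 and ARF5 were lower in dex at both digests, 5 of 43, as were 10.05% of all genes, and none was higher at both (0.106% of all genes). IAA1 went from 53.6% in mock to 28% in dex at low digest and from 60.0% to 42% at high digest. ARF5 went from 30.7% to 11.0% and from 39.0% to 14%, and ARF2 from 34.9% to 14% and from 75.5% to 26%. IAA20 went from 56.0% to 42% and from 71.2% to 42%, and IAA29, a gene tied to shade growth, from 14% to 0% and from 44.0% to 14%. In all 5 the low digest dex value was the lowest or tied for the lowest of the 4. With lists reduced to equal size only IAA20 was lower by at least 140 bases at both digests, and the share of all genes was not computed there. A further 9 members (IAA6, IAA9, IAA12, IAA17, IAA26, IAA28, IAA30, IAA34 and ARF19) differed in opposite directions at the 2 digests, as did 10.7% of all genes. The values at high digest rest on the list labelled high dex, whose name column, though not its length, puts its digest and this contrast in doubt. IAA9 alone of these was lower in dex at low digest and higher at high digest.

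Between digests, the mock lists differed in 31 members. High digest mock covered more of 20 Aux/IAA and 9 ARF promoters (61.9% of all genes) and less of 2, IAA9 and IAA11 (1.66% of all genes). IAA9 went from 29% to 14% and IAA11 from 41.9% to 25.9%. After dex, with the same doubt about the digest, 7 Aux/IAA and 3 ARF promoters were more covered in the list labelled high dex (36.6% of all genes) and 8 Aux/IAA promoters and ARF19 less covered (8.5% of all genes). When lists were cut to equal size the direction in mock turned, with 2 members higher and 19 lower at high digest. In dex, where the members had been near even, 0 were then higher and 28 lower. Of all genes, 18.3% in mock and 11.2% in dex were then higher, and 24.1% and 35.5% lower.

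The rest of the pathway was followed in 31 further genes, the 6 receptors TIR1 and AFB1 to AFB5, 5 TOPLESS corepressors, 7 GH3 enzymes that conjugate auxin to amino acids, 5 PIN auxin exporters and 8 ARF genes outside the member list. Their promoters pooled to 23.4%, 26.4%, 45.8% and 25.5%, between the ARF and Aux/IAA members in each list. At low digest 7 of the 31 were higher in dex and 3 lower, beside 13.0% and 25.0% of all genes. At high digest none was higher and 24 were lower, beside 2.21% and 51.3%. The largest difference at low digest was in GH3.2, an early auxin-induced gene, with 23.6% in mock and 69.4% in dex. ARF18 had the most covered promoter of the list (56.7%, 53.3%, 67.0% and 67.3%) and AFB5, the receptor for picolinate auxins, the least (0%, 14%, 28% and 0%).

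The 8 further ARF genes differed from the 14 members in their bodies, with 22.6%, 8.96%, 50.2% and 34.9% pooled. ARF21 was lowest, with 0%, 0%, 18.0% and 9.02%, and ARF15 had 6.27%, 0%, 27.9% and 23.5%. ARF18, the only one of them away from a group of close copies on chromosome 1, had 53.1%, 31.4%, 76.3% and 61.4%. Read pairs with more than 1 alignment were left out by the authors, so a low value at a near-identical copy cannot be told apart from one that few reads could be placed on.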

How the data were processed

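Nucleosome positions came from MNase-seq of 8 libraries in 4 conditions. The authors aligned paired reads to TAIR10 with Bowtie 1.2.2, dropping those with more than 1 alignment, and called nucleosomes with DANPOS, on the replicates or, for low digest dex, on reads pooled first. The submitters' processing notes also name Picard 2.9.4, whose role is not given in the sources used here. The deposited value is the occupancy signal at the summit of each 140-bp interval, in 1 pooled list per condition. Its scale between lists is not stated, so it was used within lists only. In the low digest dex list 100% of values were multiples of 8, and none in the others.

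Gene models were those of RefSeq on TAIR10.1, whose 5 nuclear chromosomes have the lengths of TAIR10, and Landsberg reads lay on the Columbia reference. Starts were read as counting from 0. Coverage, AuxRE matches and centers (tolerance 30 bp) were computed with Python 3.11.15 and NumPy 2.4.6. Coverage code was tested on simulated data (200 of 200 simulated promoters recovered). Named with values were, per family, the 3 highest and 3 lowest promoters and the 2 highest and 2 lowest bodies by mean over lists, members changed by 140 bases at both digests, members with the start covered or 300 bp upstream free in all 4 lists, closest pairs, and in the pathway list the highest and lowest promoter; those named for AuxRE sites, shared nucleosomes or single differences were chosen after their values were seen. Members and lists of genes were chosen with earlier results of these data known. Degron classes were to be read from protein sequences, which were not used here, and are background knowledge instead. No p-value was computed.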

Additional observations from a re-analysis of the deposited data

Results flagged for a closer look

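For 9 members, the promoter difference between dex and mock had opposite signs at the 2 digests, with at least 1 nucleosome width each way. The difference between the digests was not tested, since each condition has 1 list, and 10.7% of all genes showed the same. The high digest values rest on the list labelled high dex, whose name column puts its digest in doubt. The low digest dex values rest on a list called from reads pooled first, unlike the others.

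In percentage points of promoter coverage, dex minus mock was 18.9 at low digest and -28 at high digest in IAA6, 14 and -39.0 in IAA26, 27.8 and -39.8 in IAA28, 22.6 and -34.6 in IAA30, and 21.0 and -25.0 in IAA34. It was 14 and -14 in both IAA12 and IAA17, whose promoters held 1 or 2 whole nucleosomes in each list, and 15 and -20.0 in ARF19. IAA9 had the opposite order, with -14.6 and 16.4. With lists reduced to equal size, 3 of the 9 (IAA6, IAA28 and IAA34) still differed by at least 140 bases in opposite directions, and IAA26 and ARF19 were higher in dex at both digests. The shares of all genes with these patterns were not computed for lists of equal size, so the counts have no background there.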

How the results depend on the processing

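No paired analysis was possible because each condition has 1 pooled list, so neither a replicate block nor leaving out a replicate could be run. No member windows overlapped, so that alternative was void. A coverage value counted as moved where it left the Wilson 95% interval of the value in the report, with 140-bp stretches or sites as trials, and a count where it differed by over 1.5 times. Of 28 results, none moved when starts were read as counting from 1. None of 12 moved with promoters of 500 bp or with promoter bases outside other genes. ARF promoters lay below and ARF bodies above all genes in all 4 lists in every setting run. Aux/IAA promoters lay above all genes in all 4 lists with 500 bp or bases outside other genes. When lists were cut by occupancy, they lay above all genes at low digest only. At equal list size they differed from all genes by 0.769, 8.01, -4.88 and -5.25 points. Keeping the higher 50% of each list gave 3.21, 8.74, -4.77 and -7.25 points. The third value, for high digest mock, thus turned from 2.50 points above all genes in the full list to below them. The first, for low digest mock, turned from 1.15 points below all genes in the full list to above them. Depth is unknown, and the cause of the changes below was not tested.

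With lists reduced to the length of the shortest, Aux/IAA promoter coverage was 16.6% in high digest mock and 13.9% for the list labelled high dex, and ARF promoter coverage 1.09% and 3.29%. Aux/IAA bodies had 28.5% in low digest mock, 30.5% in high digest mock and 31.8% for the list labelled high dex, and ARF bodies 47.4%, 44.1% and 50.3%. AuxREs of both families were covered at 15.7% and 35.3% in the last 2 lists. In dex against mock, 4 members were lower at low digest, and 7 higher and 5 lower at high digest. High against low digest gave 2 higher and 19 lower in mock, and 0 higher and 28 lower in dex.

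With the higher 50% of each list by occupancy, Aux/IAA promoters had 19.3%, 22.7%, 16.6% and 7.37%, and ARF promoters 9.54%, 6.31%, 1.09% and 1.24%, the first within its interval, which is wide. Aux/IAA bodies had 19.3%, 15%, 30.1% and 24.5%, and ARF bodies 32.3%, 25.9%, 43.5% and 42.5%. AuxREs were covered at 31.4% in low digest mock, 15.7% in high digest mock and 9.80% for the list labelled high dex. In dex against mock, 7 members were higher and 4 lower at low digest (13.4% and 22.1% of all genes), and 10 lower at high digest (33.5%). High against low digest gave 5 higher and 15 lower in mock (32.1% and 14.7%), and 1 higher and 20 lower in dex (22.4% and 22.3%).

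Coding sequence alone gave 62.2%, 44.0%, 83.4% and 74.4% for Aux/IAA genes and 78%, 58.2%, 83.4% and 81.5% for ARF genes. The comparison within ranges of promoter G+C and the counts without the list labelled high dex were chosen after seeing the data. Without that list, 11 Aux/IAA and 3 ARF AuxREs were covered in the remaining 3 lists, and 7 and 6 in none. The shares over the sites of all promoters were not computed for these 3 lists, so the counts have no background.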
